A study of Mus musculus with 12 samples.

Results

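The integrated stress response and the amino acid synthesis genes it controls were followed through 10 genes: Atf4, Ddit3, Trib3, Chac1, Asns, Psat1, Phgdh, Aldh18a1, Stc2 and Vldlr. They were picked by name, as the probe sets whose single gene symbol in the array's gene table is one of these, and the names were chosen with earlier results of these data known. All 10 were found, with 1 probe set each, among 19938 genes measured. Total RNA of cultured mouse myeloid progenitors had been hybridised to 12 gene arrays, 3 in each of 4 groups. In the Myc Zfx ko group (below, Myc ko), cells of Zfx fl/y CreER mice carried a retrovirus expressing Myc, the growth-promoting transcription factor, together with GFP. In the Myc Zfx wt group (Myc wt), the same virus was carried by cells of Zfx wt/y CreER mice. The GFP Zfx ko (GFP ko) and GFP Zfx wt (GFP wt) groups were cells of these genotypes with a control virus that carried only the GFP marker. Zfx is an X-linked zinc finger transcription factor, and CreER is a Cre recombinase that tamoxifen switches on.

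The mice of all 4 groups carried CreER and were given 5 mg of tamoxifen by gavage on each of 3 days, and their c-Kit+ marrow progenitors were then infected. After 48 hours GFP+ cells were sorted, and they were grown for another 4 days in medium with 3 cytokines, each at 10 ng/mL (IL-3, SCF and IL-6). The labels give neither the age of the mice nor the promoter of CreER, and no uninfected cells were among the groups. They do not say whether the arrays of a group came from separate mice, pools or cultures, so p-values measure the spread between arrays.

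As background, the integrated stress response starts when kinases that sense missing amino acids, misfolded protein, viral RNA or missing haem phosphorylate the translation factor eIF2α. General translation then slows while the mRNA of the transcription factor ATF4 is translated more, so ATF4 activity can change without a change in Atf4 RNA. ATF4 and its target CHOP, the product of Ddit3, switch on genes for amino acid transport and synthesis, for tRNA charging and for the end of the response. In growing blood progenitors the same enzymes supply asparagine, serine, glycine and proline for new protein and nucleotides.

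Values are the authors' normalised intensities on a linear scale, and the arrays of a group are always given in the order of their replicate numbers. Intensities of different probe sets were not compared, other than with the median of all probe sets (131) as a mark of dim ones. "Rose", "fell", "higher than" and "passed" refer to an adjusted p under 0.05 in limma (Benjamini-Hochberg over all 19938 genes), and where the replicate number as a block in that fit changes a call, its adjusted p stands beside it. Intervals are 95% intervals of a single gene. A lack of overlap between the arrays of 2 groups was common and is no call. For Myc against GFP it held, in either direction, for 25.5% of all genes in ko and 24.5% in wt cells. For ko against wt it held for 19.5% with the Myc virus and 17.9% with the GFP virus. The Myc probe set was 1.87-fold brighter in Myc ko than in GFP ko arrays and 1.74-fold brighter in Myc wt than in GFP wt arrays. The Zfx probe set was not dimmer in the arrays labelled ko: it averaged 1048 ± 63.2 in Myc ko and 992 ± 26.4 in Myc wt arrays, and 1021 ± 64.9 in GFP ko and 946 ± 72.9 in GFP wt arrays (SD, n = 3 each). Whether its probes lie in the deleted part is not known here, so ko below means the group labelled ko. By mean log2 intensity the progenitor markers Kit, Cd34, Mpo, Elane, Prtn3, Meis1 and Hoxa9 were brighter than the median probe set and Flt3 was not. Meis1 averaged 946 in Myc ko, 269 in Myc wt, 559 in GFP ko and 270 in GFP wt arrays. For Hoxa9 these means were 138, 357, 172 and 460. All 13 neutrophil markers were brighter than the median probe set too. The mean log2 intensity of all 7 lymphoid markers was below that of the median probe set, though Il7r reached 639.6 in its brightest array.

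Promoter windows of the 10 genes were searched for motifs of ATF4, MYC and Zfx. TGATGNAA, the motif of the C/EBP-ATF response element that ATF4 binds with a C/EBP partner, was searched on both strands from 250 bases before to 50 bases after each annotated start. It stood in the windows of 4 of the 10 genes, Trib3, Chac1, Asns and Vldlr, and in those of 4.51% of 27025 genes. CACGTG, the E-box that MYC binds with MAX, stood in 1 of the 10, Aldh18a1, and in 8.09% of genes. AGGCCT, the core of the Zfx motif, stood in 0 of the 10 and in 11.6% of genes. A match only says that these letters are there. The 5 windows with a match are shown from 250 bases before to 30 after the start (RefSeq, GRCm38.p6), each 5′ to 3′ along its gene, with the matched motif in capitals. In Trib3, Chac1 and Vldlr the motif runs on the opposite strand, so the capitals are its reverse complement. Trib3 lies at chr2:152344031-152344310 (minus strand), Chac1 at chr2:119350992-119351271 (plus), Asns at chr6:7693180-7693459 (minus), Vldlr, at the second of 2 annotated starts, at chr19:27216770-27217049 (plus), and Aldh18a1 at chr19:40588434-40588713 (minus).
Trib3: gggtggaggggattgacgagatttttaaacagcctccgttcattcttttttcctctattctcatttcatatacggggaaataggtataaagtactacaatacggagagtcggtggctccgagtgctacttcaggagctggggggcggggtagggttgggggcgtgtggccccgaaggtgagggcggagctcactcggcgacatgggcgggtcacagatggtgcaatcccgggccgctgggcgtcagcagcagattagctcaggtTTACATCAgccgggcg
Chac1: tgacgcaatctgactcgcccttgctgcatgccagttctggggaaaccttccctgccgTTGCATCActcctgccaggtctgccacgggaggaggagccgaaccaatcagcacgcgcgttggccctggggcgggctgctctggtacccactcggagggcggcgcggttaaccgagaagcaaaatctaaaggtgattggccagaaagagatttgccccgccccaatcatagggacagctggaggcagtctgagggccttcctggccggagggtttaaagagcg
Asns: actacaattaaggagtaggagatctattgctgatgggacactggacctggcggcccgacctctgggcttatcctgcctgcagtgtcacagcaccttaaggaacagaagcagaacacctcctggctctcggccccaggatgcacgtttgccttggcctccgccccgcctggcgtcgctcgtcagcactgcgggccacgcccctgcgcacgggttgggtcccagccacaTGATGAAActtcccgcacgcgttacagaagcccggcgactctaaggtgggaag
Vldlr: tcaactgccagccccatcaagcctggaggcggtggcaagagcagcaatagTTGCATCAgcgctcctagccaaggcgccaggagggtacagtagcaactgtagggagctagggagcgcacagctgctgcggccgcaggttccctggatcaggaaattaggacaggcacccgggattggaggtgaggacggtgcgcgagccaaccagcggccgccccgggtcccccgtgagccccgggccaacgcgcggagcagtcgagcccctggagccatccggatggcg
Aldh18a1: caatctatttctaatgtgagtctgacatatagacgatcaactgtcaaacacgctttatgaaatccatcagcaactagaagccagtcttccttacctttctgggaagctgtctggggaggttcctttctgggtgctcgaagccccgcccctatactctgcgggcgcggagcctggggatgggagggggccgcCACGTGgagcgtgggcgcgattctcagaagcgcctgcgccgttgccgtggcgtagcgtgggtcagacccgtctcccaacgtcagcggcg

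With Myc, the RNAs of 3 amino acid enzymes and of Stc2 rose in both genotypes, by 1.31- to 2.40-fold, while Atf4 and Chac1 passed in no comparison. In ko cells 4 of the 10 genes rose with Myc, Asns, Psat1, Aldh18a1 and Stc2, and 1 fell, Vldlr, beside 8.58% of all genes that rose and 4.59% that fell. In wt cells these 4 rose and 0 fell, beside 6.17% and 3.11% of all genes (with limma at an unadjusted p under 0.05, 5 were higher and 1 lower, and 20.4% of all genes passed in either direction). In ko cells 5 were higher and 1 lower at that unadjusted p, beside 24% of all genes in either direction. Between genotypes, 1 of the 10 genes was higher in ko cells with the Myc virus, Trib3, beside 1.74% of all genes, and 1 with the GFP virus, Vldlr, beside 1.17%. None was lower in ko cells with either virus in limma, beside 3.72% of all genes with the Myc virus and 2.94% with the GFP virus. At an unadjusted p under 0.05 in limma, 3 were higher and 0 lower in ko cells with each virus. Of all genes 15.8% had such a p in either direction with the Myc virus and 14.6% with the GFP virus. The plot of intensities by array shows all 10 genes.

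**Figure D1:**
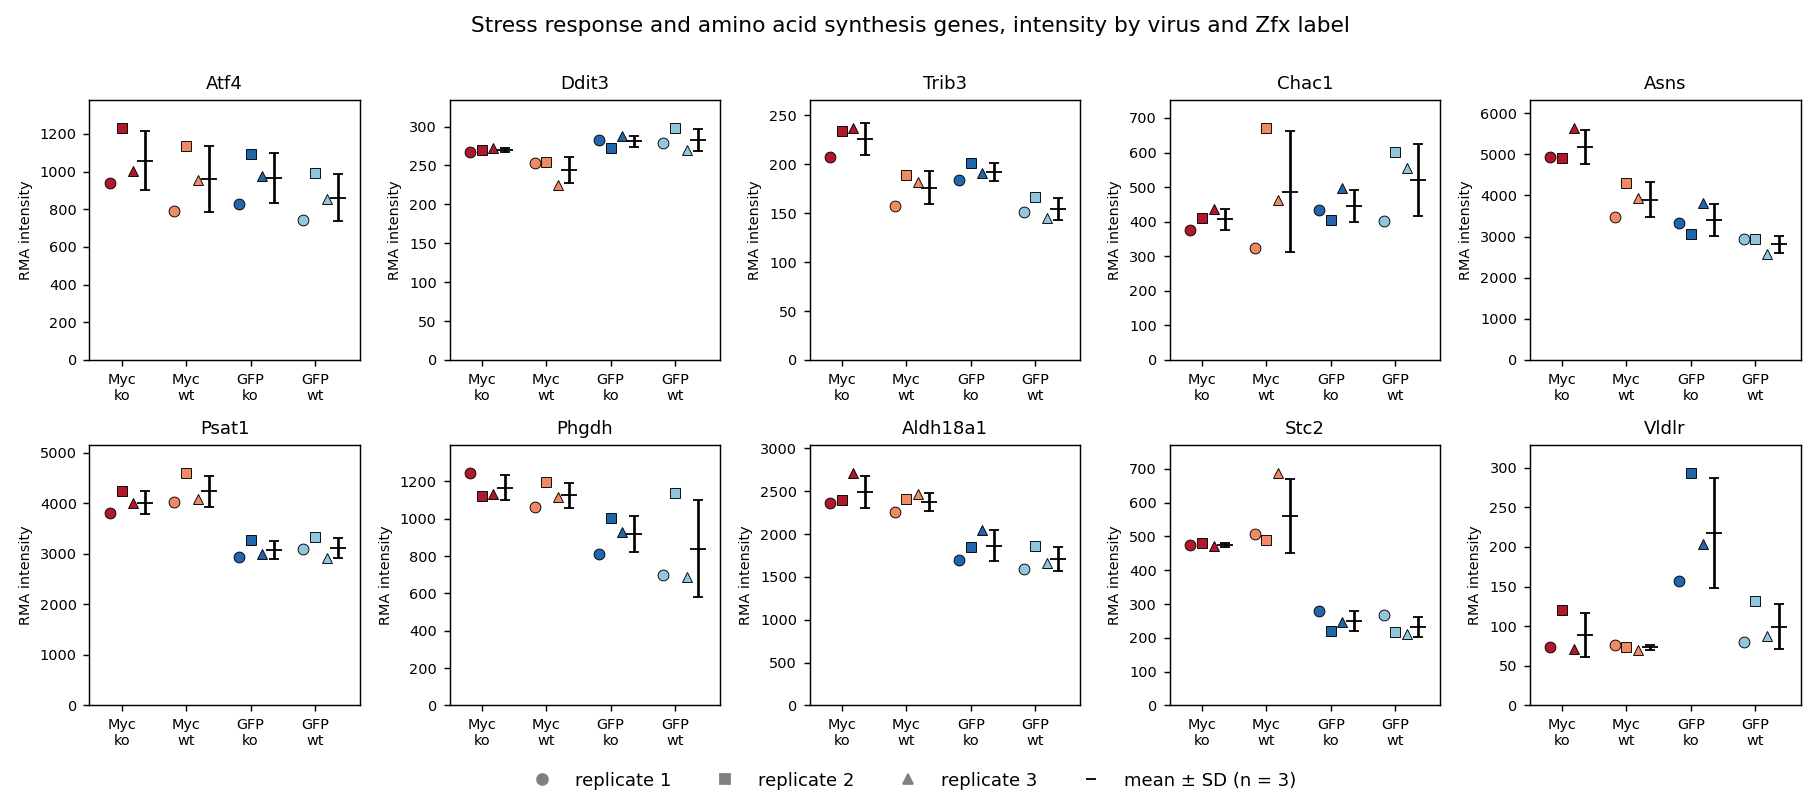
Normalised RMA intensity (linear vertical axis from 0) of the 10 genes in each of 12 arrays, in the groups Myc ko, Myc wt, GFP ko and GFP wt; symbols are arrays by replicate number and bars are mean ± SD (n = 3). Psat1, Aldh18a1 and Stc2 lie higher in all Myc arrays than in any GFP array, and Vldlr is highest in GFP ko arrays.

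Atf4, the transcription factor at the centre of the response, had intensities of 939.6, 1233 and 1003 in Myc ko and 789, 1137 and 956 in Myc wt arrays. In GFP ko arrays it had 828, 1094 and 977, and in GFP wt arrays 741, 991 and 853. Replicate 2 was the brightest and replicate 1 the dimmest in all 4 groups, and every pair of groups overlapped. The Myc effect was 1.09-fold in ko cells (interval 0.852 to 1.41, limma adjusted p = 0.785) and 1.11-fold in wt cells (0.864 to 1.43, adjusted p = 0.781). Atf4 was brighter with Myc in 3 of 3 numbered pairs of each genotype, and the block gave an adjusted p of 0.0905 in ko and 0.0603 in wt cells. It was also brighter in ko than in wt arrays in 3 of 3 pairs with each virus (adjusted p with the block = 0.0886 with Myc and 0.0597 with GFP). None of these passed.

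Ddit3 encodes CHOP, a transcription factor that ATF4 induces and that promotes cell death under lasting stress. Its intensities were 267, 270.1 and 273 in Myc ko, 253, 254 and 224 in Myc wt, 282, 273 and 288 in GFP ko and 279, 299 and 271 in GFP wt arrays. All 3 Myc arrays of each genotype were dimmer than every GFP array of it, by a small margin in ko cells. The difference was a 1.16-fold lower level with Myc in wt cells (interval 1.06 to 1.27), which missed the threshold in limma (adjusted p = 0.0546) and passed with the replicate block (adjusted p = 0.029). In ko cells it was 1.04-fold lower (adjusted p = 0.731).

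Trib3, a pseudokinase that CHOP and ATF4 induce and that holds their activity back, read 208, 234 and 238 in Myc ko and 157, 189 and 182 in Myc wt arrays. With the GFP virus it read 184, 202 and 191 in ko and 151, 166 and 145 in wt arrays. The ko arrays were brighter than the wt arrays with either virus, without overlap, and the Myc ko arrays were the brightest of all. Trib3 was 1.29-fold higher in Myc ko than in Myc wt cells (interval 1.13 to 1.47, limma adjusted p = 0.0358). The difference was 1.25-fold with the GFP virus (1.09 to 1.42), with an adjusted p of 0.074, or 0.00747 with the replicate block. With Myc it was 1.18-fold higher in ko cells (adjusted p = 0.111, 0.0163 with the block) and 1.14-fold higher in wt cells (adjusted p = 0.245, 0.0483 with the block). The call in Myc cells was lost on leaving out any of 6 of the 12 arrays, with adjusted p up to 0.128, and under 5 of the 7 other settings tried (0.058 to 0.114). Erythroid markers moved with it: by group mean 7 of 8 were brighter in Myc ko than in Myc wt arrays and Tfrc was dimmer. Their summed intensity was 6011 to 11252 in Myc ko and 4766 to 6376 in Myc wt arrays, 4 of the 8 passed upward, none is listed at 0, and their part in the result was not tested.

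Chac1, which breaks down glutathione and is induced by ATF4, had intensities of 375, 409.8 and 436 in Myc ko and 324, 672 and 463 in Myc wt arrays. It had 435, 404 and 496 in GFP ko and 403, 602 and 556 in GFP wt arrays. Every pair of groups overlapped, and the wt arrays spread more widely than the ko arrays with either virus. Its Myc effect was a 1.09-fold lower level in ko cells (interval 0.765 to 1.56) and a 1.10-fold lower one in wt cells (0.772 to 1.57), with limma adjusted p of 0.879 and 0.886.

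Of the 4 amino acid enzymes, 3 rose with Myc in each genotype, and Phgdh was higher by a similar size without passing. Asns makes asparagine from aspartate and glutamine. It read 4943, 4919 and 5649.8 in Myc ko and 3326, 3051 and 3822 in GFP ko arrays, a rise of 1.52-fold (interval 1.29 to 1.79, limma adjusted p = 0.00499). In wt cells it read 3466, 4292 and 3945 with Myc and 2942, 2931 and 2571 with GFP, a rise of 1.38-fold (1.18 to 1.63, adjusted p = 0.0207). The Myc and GFP arrays of each genotype did not overlap, nor did the ko and wt arrays of either virus, beside the shares of all genes given above. The wt call was lost on leaving out Myc wt replicate 2, Myc wt replicate 3 or GFP wt replicate 3, with adjusted p up to 0.0919. Between genotypes, Asns was 1.33-fold higher in Myc ko than in Myc wt cells (1.13 to 1.56), with an adjusted p of 0.0523, or 0.0284 with the block. With the GFP virus the ratio of ko to wt was 1.21 (adjusted p = 0.249).

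Psat1, the transaminase of serine synthesis, read 3801, 4242 and 3995 in Myc ko and 2939, 3274 and 3004 in GFP ko arrays. In wt arrays it read 4029.6, 4594 and 4085 with Myc and 3088, 3331 and 2925 with GFP. Every Myc array was brighter than every GFP array of either genotype. Psat1 rose 1.31-fold with Myc in ko cells (interval 1.16 to 1.47, limma adjusted p = 0.00821) and 1.36-fold in wt cells (1.21 to 1.53, adjusted p = 0.0064). The ratio of ko to wt was 0.948 with Myc and 0.987 with GFP, and neither passed.

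Phgdh, which carries out the committed step of serine synthesis just before Psat1, read 1244, 1122 and 1135 in Myc ko and 813, 1005 and 929.7 in GFP ko arrays. In wt arrays it read 1065, 1198 and 1115 with Myc and 696, 1138 and 685 with GFP. The Myc ko arrays lay above the GFP ko arrays without overlap, while GFP wt replicate 2 stood far above the other 2 arrays of its group. The Myc effect was 1.28-fold in ko cells (interval 0.986 to 1.66, limma adjusted p = 0.241). In wt cells it was 1.38-fold (1.06 to 1.79), with an adjusted p of 0.131, or 0.0437 with the block. Without GFP wt replicate 2 both passed in limma, with adjusted p of 0.0234 in ko and 0.00534 in wt cells. The wt difference was then 0.70 on the log2 scale in place of 0.46. The ko difference stayed at 0.35, as that array is outside the ko comparison. It enters there only through the spread shared by the 4 groups.

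Aldh18a1, which starts proline synthesis from glutamate and has the E-box shown above, read 2366, 2398 and 2711 in Myc ko and 1695, 1852 and 2052 in GFP ko arrays. In wt arrays it read 2259, 2409 and 2464 with Myc and 1591, 1863 and 1663 with GFP. The Myc arrays of each genotype lay above its GFP arrays without overlap. The rise was 1.34-fold in ko cells (interval 1.17 to 1.53, limma adjusted p = 0.0115) and 1.40-fold in wt cells (1.22 to 1.60, adjusted p = 0.00849). Without Myc ko replicate 3 the adjusted p in ko cells was 0.0522, and it was 0.053 when only the groups compared were fitted. The ratio of ko to wt was 1.05 with Myc and 1.09 with GFP, and neither passed.

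Stc2, a secreted glycoprotein that ATF4 induces in stressed cells, had the largest Myc effect of the 10 genes in wt cells. It read 473, 482 and 470.3 in Myc ko and 279.7, 219.6 and 248 in GFP ko arrays, a rise of 1.92-fold (interval 1.55 to 2.37, limma adjusted p = 0.0023). In wt cells it read 506, 488 and 687 with Myc and 266, 217 and 212 with GFP, a rise of 2.40-fold (1.94 to 2.97, adjusted p = 0.00136). The dimmest Myc array was brighter than the brightest GFP array. Both calls held on leaving out any single array, with adjusted p of at most 0.0118 in ko and 0.00988 in wt cells. The Myc ko arrays were all dimmer than the Myc wt arrays, but genotype made no difference that passed: the ratio of ko to wt was 0.858 with Myc (0.694 to 1.06) and 1.08 with GFP (0.870 to 1.33).

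Vldlr, the very low density lipoprotein receptor, which takes up lipoproteins and which ATF4 can induce, ran the other way. It read 74.3, 121 and 71.7 in Myc ko and 75.9, 73.9 and 69.9 in Myc wt arrays, and 157, 293 and 203 in GFP ko and 79.5, 132 and 87.3 in GFP wt arrays. The 3 GFP ko arrays were brighter than all others, and the other 3 groups lay near or below the median intensity of all probe sets. In wt cells too the Myc arrays were all dimmer than the GFP arrays. Vldlr fell 2.44-fold with Myc in ko cells (interval 1.63 to 3.67, limma adjusted p = 0.0104). In wt cells it was 1.33-fold lower with Myc (0.883 to 1.99, adjusted p = 0.493). It was 2.17-fold higher in GFP ko than in GFP wt cells (1.45 to 3.26, adjusted p = 0.0428), and the ratio was 1.18 with the Myc virus (adjusted p = 0.848). Both calls rest on the same 3 GFP ko arrays. Whether the dim groups lie above background is not known here, so the true folds may be larger. The second was lost on leaving out any of 9 of the 12 arrays, with adjusted p up to 0.161, and under 4 of the 6 other settings that kept the gene (0.0664 to 0.111).

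The 4 megakaryocyte markers Pf4, Itga2b, Gp9 and Ppbp differed in the same directions as Vldlr by group mean, but by other amounts. With the Myc virus their median log2 difference of ko to wt was 1.39, against 0.24 for Vldlr. With Myc in ko cells their median was -0.53, against -1.29 for Vldlr. There the fall in the markers' summed intensity was mostly Ppbp, with means of 11078 in GFP ko and 2024 in Myc ko arrays. Their summed intensity was 5003 to 14942 in Myc ko, 1589 to 6726 in Myc wt, 19666 to 25353 in GFP ko and 6815 to 13235 in GFP wt arrays. All 4 were brighter in ko than in wt arrays with either virus and dimmer with Myc in either genotype, and in limma 0 passed (3 of 4 had an unadjusted p under 0.05 in each ko comparison, and 1 of 4 in each Myc comparison). With the replicate block 3 of 4 passed upward in each ko comparison and 1 of 4 downward in each Myc comparison. Their part in the Vldlr result was not tested.

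**Figure D2:**
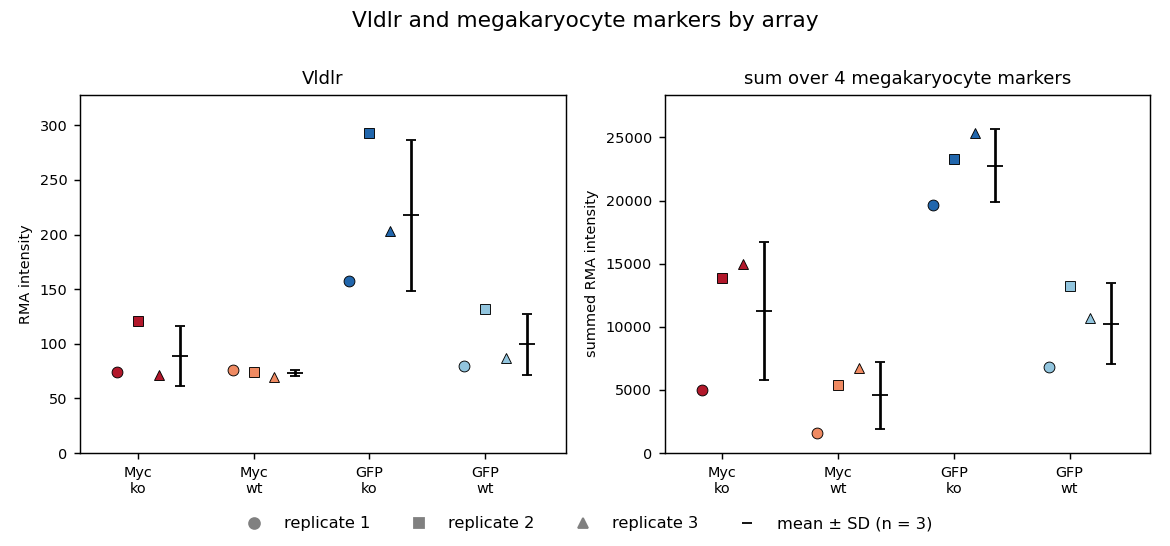
RMA intensity of Vldlr (left) and summed intensity of 4 megakaryocyte markers (right) by group, both on linear vertical axes from 0; symbols are arrays by replicate number and bars are mean ± SD (n = 3). The GFP ko arrays are highest in both panels.

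With the replicate block, in ko cells 5 of the 10 were higher with Myc and 1 was lower, beside 14.5% and 10.4% of all genes. In wt cells the block gave 6 higher and 1 lower, beside 12.2% and 8.25%. The median log2 difference of the 10 genes was 0.29 in ko and 0.32 in wt cells, against 0.01 and 0.00 over all genes. Neutrophil markers moved with the virus in both genotypes: all 13 were dimmer with Myc. Of these, 10 of 13 passed in ko and 7 of 13 in wt cells (12 with the block), and none is listed at 0. Their summed intensity was 47388 to 54365 in Myc ko against 75177 to 94855 in GFP ko arrays, and 38051 to 51851 in Myc wt against 74539 to 91431 in GFP wt arrays. Of 13 mast cell and basophil markers 6 fell with Myc in each genotype, and in wt cells 1 rose. Their summed intensity was 6195 to 10076 in Myc ko, 11284 to 25128 in Myc wt, 13978 to 19915 in GFP ko and 21652 to 29469.6 in GFP wt arrays. By group mean all 13 were dimmer in ko than in wt arrays with either virus, and 4 passed with the Myc and 2 with the GFP virus (5 each with the block). Of 8 erythroid markers 5 rose with Myc in ko cells and 1 in wt cells (7 and 3 with the block), with sums of 6011 to 11252 in Myc ko against 4392 to 5062 in GFP ko arrays. In wt cells these sums were 4766 to 6376 with Myc and 3829 to 4778 with GFP. The part of these markers in the results was not tested, and in such mixed RNA fewer cells of a type and less RNA per cell cannot be told apart.

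Between ko and wt cells the block gave 2 higher genes with each virus, adding Asns with the Myc virus, beside 6.05% of all genes, and Trib3 with the GFP virus, beside 5.12%. The median log2 difference of the 10 genes was 0.11 with the Myc virus and 0.15 with the GFP virus, against 0.00 over all genes in both.

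**Figure D3:**
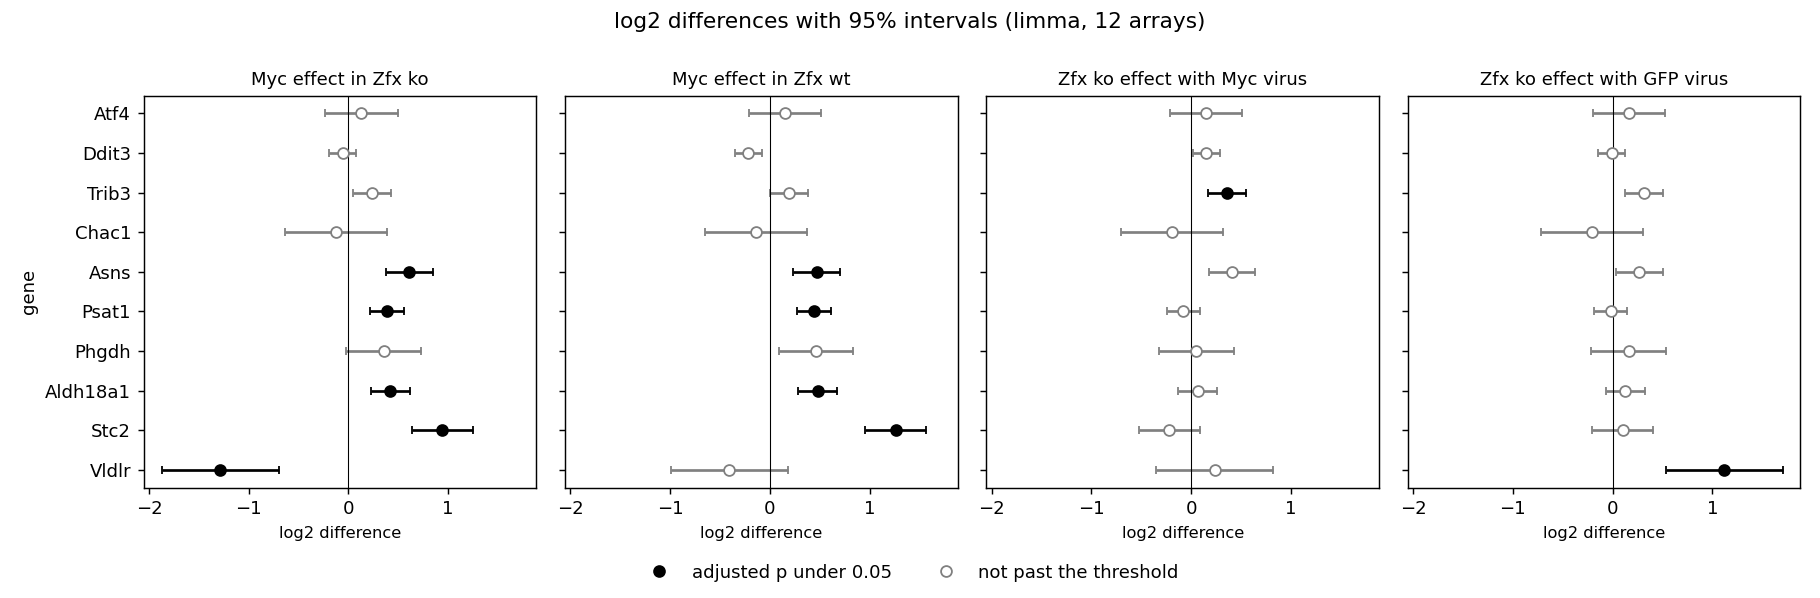
Log2 difference (horizontal axis) of each of the 10 genes in 4 comparisons, Myc minus GFP in ko and in wt cells and ko minus wt with the Myc and with the GFP virus; bars are 95% intervals and filled points passed in limma. Stc2 lies farthest to the right for Myc, and Vldlr lies far left for Myc in ko cells and right for ko with GFP.

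Whether the Myc effect differed between genotypes was tested as an interaction, the Myc effect in ko minus that in wt cells. In limma 0 of the 10 genes passed, as did 0 of all genes (0%), and 1 of the 10 had an unadjusted p under 0.05, beside 1.72% of all genes. That gene was Vldlr, with a log2 difference of -0.88 ± 0.37 (SE, adjusted p = 0.999893). Stc2 had -0.33 ± 0.20 and Asns 0.14 ± 0.15, and their intervals, -0.76 to 0.11 and -0.19 to 0.47, include 0. With the replicate block 0 of the 10 passed as well, beside 1 gene of all 19938. A larger or smaller rise of the enzymes in ko cells was not detected with 3 arrays a group.

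The rest of the pathway was read from 5 lists of other genes. Upstream, of 9 kinases, phosphatase subunits and partners that set eIF2α phosphorylation, 2 rose with Myc in ko cells, and in wt cells 1 rose and 1 fell, beside 8.58% of all genes that rose in ko and 6.17% that rose and 3.11% that fell in wt cells. With the replicate block 3 rose and 1 fell in each genotype, beside 14.5% and 10.4% of all genes in ko and 12.2% and 8.25% in wt cells. Gcn1, the ribosome-bound partner that activates the amino acid sensor Gcn2, rose with Myc 1.41-fold in ko (limma adjusted p = 0.00299) and 1.25-fold in wt cells (adjusted p = 0.0246). Eif2ak3, the kinase PERK that senses misfolded protein in the endoplasmic reticulum, fell 1.20-fold with Myc in wt cells (adjusted p = 0.0468).

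Eif2ak4, which encodes Gcn2, the kinase that senses uncharged tRNA, was lower in ko cells with either virus. It read 471, 552 and 418 in Myc ko against 765, 780.3 and 760.3 in Myc wt arrays, and 349, 474 and 349 in GFP ko against 594, 656 and 571 in GFP wt arrays. The ko and wt arrays did not overlap. The difference was 1.61-fold with the Myc virus (interval 1.32 to 1.96, limma adjusted p = 0.0123) and 1.57-fold with the GFP virus (1.29 to 1.91, adjusted p = 0.0188). Eif2ak1, the haem-sensing kinase HRI that is best known from red cell precursors, was 1.27-fold higher in Myc ko than in Myc wt cells (adjusted p = 0.0226) and rose 1.23-fold with Myc in ko cells (adjusted p = 0.0225). The erythroid markers given beside Trib3 moved with the same comparison, and their part in this was not tested. Each of these calls between genotypes was 1 gene of 9. Of all genes 1.74% were higher and 3.72% lower in ko cells with the Myc virus, and 2.94% were lower with the GFP virus. With the block 1 was higher and 1 lower with the Myc virus, beside 6.05% and 8.03% of all genes. With the GFP virus the block gave 1 higher and 2 lower, beside 5.12% and 7.12%. The list's median log2 difference was -0.04 for ko with Myc and 0.03 for ko with GFP.

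Of 33 other target genes of ATF4 and CHOP, 10 rose and 1 fell with Myc in each genotype, beside 8.58% and 4.59% of all genes in ko and 6.17% and 3.11% in wt cells. The list's median log2 difference was 0.17 in ko and 0.23 in wt cells. With the replicate block 15 rose in each genotype, beside 14.5% of all genes in ko and 12.2% in wt cells, and 4 fell in ko and 3 in wt cells, beside 10.4% and 8.25%. Slc1a4, a transporter of alanine, serine and cysteine, rose 1.83-fold in ko (limma adjusted p = 0.0111) and 1.75-fold in wt cells (adjusted p = 0.0203). Slc7a5, the light chain of the large neutral amino acid transporter, rose 1.41-fold in wt cells (adjusted p = 0.0373). Gars and Wars, which charge the tRNAs for glycine and tryptophan, rose 1.43- and 1.39-fold in ko cells (adjusted p = 0.00241 and 0.00251). In wt cells too their Myc arrays lay above their GFP arrays without overlap. The wt means were 3228 with Myc and 2373 with GFP for Gars, and 2040 and 1577 for Wars. Kdm7a, a histone demethylase, was the gene that fell, 1.51-fold in ko and 1.63-fold in wt cells (adjusted p = 0.00802 and 0.00578). Kdm7a was also the 1 gene of this list that passed between genotypes, 1.54-fold higher in ko cells with the Myc virus and 1.43-fold with the GFP virus (adjusted p = 0.0125 and 0.0351). With the block 4 were higher and 2 lower in ko cells with the Myc virus, beside 6.05% and 8.03% of all genes, and 5 higher and 1 lower with the GFP virus, beside 5.12% and 7.12%.

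Of 22 other enzymes of amino acid synthesis and interconversion, 6 rose and 0 fell with Myc in each genotype (limma, with 2 lower at an unadjusted p under 0.05 in each). Of all genes 8.58% rose and 4.59% fell in ko cells, and 6.17% rose and 3.11% fell in wt cells. With the block 10 rose in ko and 11 in wt cells, beside 14.5% and 12.2% of all genes. The median log2 difference was 0.22 in ko and 0.31 in wt cells, and 5 symbols of this list, among them Shmt2, also stand in the target list. Shmt1 and Shmt2, which turn serine into glycine and a one-carbon unit, rose 1.53- and 1.37-fold in ko cells (adjusted p = 0.00476 and 0.00783). In wt cells they rose 1.52- and 1.48-fold (adjusted p = 0.00726 and 0.00474). Got1, the cytosolic aspartate aminotransferase, rose 1.47-fold in ko and 1.42-fold in wt cells (adjusted p = 0.00969 and 0.0185). Glul, which makes glutamine, rose 1.51-fold in ko cells (adjusted p = 0.0465), and Bcat1, the branched-chain aminotransferase, rose 1.85-fold in wt cells (adjusted p = 0.0215). Aldh4a1, a mitochondrial enzyme of proline breakdown, was the 1 gene of this list that passed between genotypes. It was 1.43-fold lower in ko cells with the Myc virus and 1.24-fold lower with the GFP virus (adjusted p = 0.00126 and 0.0224). With the block 1 other gene was higher with the Myc virus and 2 with the GFP virus, beside 6.05% and 5.12% of all genes.

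The ATF6 and IRE1 arms are the branches of the unfolded protein response that do not run through eIF2α. Of their 16 genes 0 rose with Myc in either genotype (limma, 0 also at an unadjusted p under 0.05). Of all genes 8.58% rose in ko and 6.17% in wt cells, and in so short a list 0 is not far from these shares. An unadjusted p under 0.05 in either direction was reached by 24% of all genes in ko and 20.4% in wt cells. The log2 difference was negative for 15 of the 16 in ko cells (median -0.14) and for 12 in wt cells (median -0.07). In ko cells 3 fell: Edem1 1.34-fold, Dnajc3 1.30-fold and Calr 1.14-fold (adjusted p = 0.0135, 0.0317 and 0.0469). These encode a factor of protein degradation at the endoplasmic reticulum, a co-chaperone there and the chaperone calreticulin. In wt cells 1 fell, Edem1, by 1.37-fold (adjusted p = 0.0129). Of all genes 4.59% fell in ko and 3.11% in wt cells. With the block 6 of the 16 fell in ko and 3 in wt cells, beside 10.4% and 8.25% of all genes. Hyou1, a chaperone of this list, was 1.23-fold lower in Myc ko than in Myc wt cells, with an adjusted p of 0.0581, or 0.0325 with the block, and no gene of the list passed between genotypes in limma. At an unadjusted p under 0.05, 0 were higher and 2 lower with the Myc virus, and 2 higher and 1 lower with the GFP virus. With the block 1 was higher with the GFP virus, beside 5.12% of all genes.

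Among 11 other transcription factors of the response, 0 rose and 2 fell with Myc in each genotype (limma, 0 higher also at an unadjusted p under 0.05). Of all genes 8.58% rose and 4.59% fell in ko cells, and 6.17% rose and 3.11% fell in wt cells. In so short a list 0 is not far from the shares that rose. At an unadjusted p under 0.05 in either direction the share of all genes was 24% in ko and 20.4% in wt cells. The log2 difference was negative for 8 of the 11 in ko cells (median -0.10) and for 10 in wt cells (median -0.14). With the block 5 fell in ko cells, beside 10.4% of all genes. Cebpd, a C/EBP factor, fell 1.65-fold in ko and 1.66-fold in wt cells (adjusted p = 0.0141 and 0.0176). Jdp2, a repressor of the AP-1 family, fell 1.61-fold in ko and 1.44-fold in wt cells (adjusted p = 0.00497 and 0.0211). Nupr1, a small stress-induced cofactor, was 1.29-fold higher in GFP ko than in GFP wt cells, with an adjusted p of 0.198, or 0.0104 with the block. Atf3, named after its values were seen, had the list's largest log2 differences of ko to wt, 1.36 with the Myc and 0.96 with the GFP virus. It read 618, 1944 and 634 in Myc ko and 278, 776 and 210 in Myc wt arrays. With the GFP virus it read 377, 2180 and 587 in ko and 214, 1217 and 253 in wt arrays. The ko array was the brighter in every numbered pair, and replicate 2 was the brightest in every group. Between genotypes 0 passed in limma with either virus (at an unadjusted p under 0.05, 1 higher and 2 lower with the Myc virus, 1 higher and 0 lower with the GFP virus). With the block 2 were higher and 2 lower with the Myc virus, beside 6.05% and 8.03% of all genes, and 2 higher and 1 lower with the GFP virus, beside 5.12% and 7.12%. The neutrophil markers given above moved the same way as Cebpd and Jdp2 with Myc, and their part in these was not tested.

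In the interaction 0 genes of the 5 lists passed in limma. At an unadjusted p under 0.05 these were 1 kinase gene, Eif2ak1 (log2 difference 0.30 ± 0.10 SE), and 1 enzyme gene, Aldh4a1 (-0.20 ± 0.09 SE). In the other 3 lists the gene with the lowest p was Ddit4 among the targets, Jdp2 among the transcription factors and Dnajc3 in the ATF6 and IRE1 arms, each with a negative log2 difference of at most 0.28 in size.

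**Figure D4:**
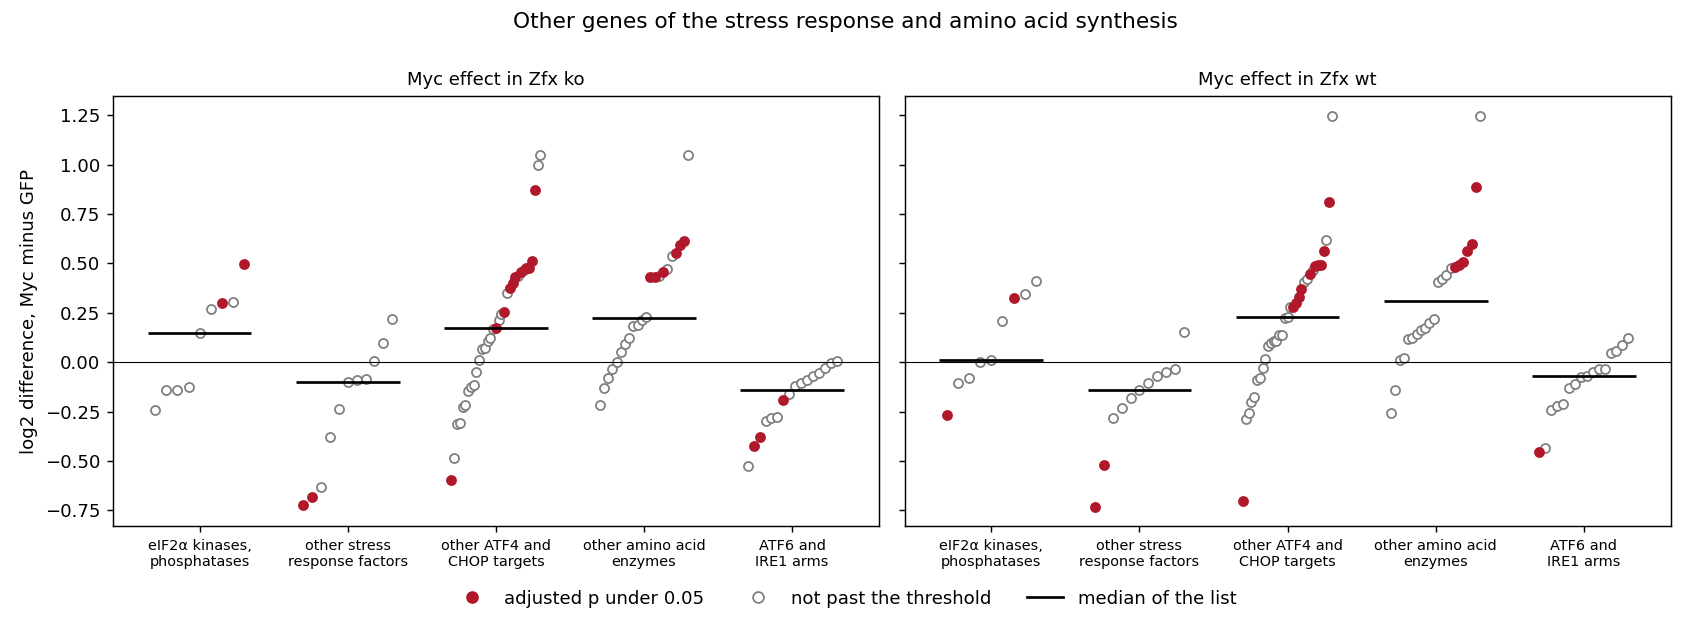
Log2 difference, Myc minus GFP (vertical axis), of every measured gene of the 5 pathway lists, 1 point per gene, in ko (left) and wt cells (right); filled points passed in limma and lines are list medians. Targets and enzymes lie mostly above 0 and the ATF6 and IRE1 genes mostly below.

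The 10 genes differed in how they went together. Over the 12 arrays their 45 pairwise correlations (Pearson, log2 values) were between -0.78 and 0.89 with a median of 0.28, and 27 were positive; arrays of a group share virus and genotype, so this is a description. For deviations from the group means, which leave out group differences, 36 of the 45 were positive, between -0.50 and 0.84 with a median of 0.39. Arrays with the same replicate number deviated together over all genes, so these are not independent points. The genes closest to the Atf4 profile among 10249 that are brighter than the median were Dhx40, Zfp110, Top1, Ube2e3 and Slc38a2, with r of 0.94 to 0.96. Closest to the mean profile of the 10 genes were Dyrk2, Xrcc5, Pawr, Itpa and U2af2, also with r of 0.94 to 0.96.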

How the data were processed

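For each array the authors deposited 35556 probe set intensities, made with RMA per the submitters' processing notes. RMA corrects the background, brings arrays to a shared distribution and sums up the probes of a set; which software was used is not given in the sources used here, nor is a genome build. The deposited values are on a linear scale, with array medians of 127 to 137, and log2 was taken before each fit.

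Groups and replicate numbers came from the sample titles. Of the probe sets, 21789 list 1 gene symbol, 1621 several and 12146 are not listed; the brightest 1 per symbol on average was kept, which gave 19938 genes. A mean for each of 4 groups was fitted over 12 arrays in limma 3.58.1 (R 4.3.3, lmFit and eBayes, 8 residual degrees of freedom) and adjusted p under 0.05 was the threshold; the number of arrays limits the precision. Same-numbered arrays of different groups deviated together from their group means (r of 0.40 to 0.85 over 18 pairs, median 0.64), and all 12 arrays lay closest to a same-numbered array of another group. So the numbers were taken to pair arrays, though the labels give only the numbers, and a blocked fit on them is quoted where it changes a call.

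The 10 genes, the pathway lists, the marker lists and the motifs were chosen with earlier results of these data known. Per list and comparison up to 4 genes past the threshold with the largest differences were named, or the 1 with the lowest p. A gene named for 1 genotype or virus may therefore have moved in the other too, and Atf3 was named outside this rule. The most alike genes were the 5 with the highest correlation, predicted and small RNA genes left out. Alternatives tried were array centring, quantile normalization once more, the replicate block, a trended and robust variance prior, fits to the compared groups alone, to genes above the median or to all probe sets, and each array left out. The fit was tested on simulated data with independent noise for each array. Such data leave out the shared deviation of same-numbered arrays, so that test does not cover it.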

Additional observations from a re-analysis of the deposited data

How the results depend on the processing

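With the replicate block the members past the threshold were 7 for Myc in wt cells, against 4, and 2 for ko in Myc and 2 in GFP cells, against 1 each. For Myc in ko cells the block gave 5 higher and 1 lower, against 4 and 1. A second quantile normalization, centring of arrays, only the groups compared and all probe sets each left 0 for ko with the Myc virus and 0 with the GFP virus. With only genes above the median intensity there were 2 with the Myc virus, Asns joining Trib3, and 0 with the GFP virus, since Vldlr was left out there. The block changed no call of the 10 genes other than those given beside them. Leaving out 1 array gave 4 to 6 members for Myc in ko, 3 to 5 for Myc in wt, 0 to 2 for ko with Myc, 0 to 1 for ko with GFP and 0 for the interaction. Over all genes the block called 4959 for Myc in ko (2626 without it), 4082 in wt (1851), 2808 for ko with Myc (1089) and 2440 with GFP (819). Only the groups compared called 1418 and 562 for Myc in ko and ko with Myc. Leaving out 1 array called at least 1395, 838, 578 and 410 in the 4 comparisons, the lowest without Myc ko replicate 3, GFP wt replicate 3, Myc wt replicate 3 and GFP wt replicate 3. Outside these fits no difference of the 10 genes changed sign. Leaving out 1 array turned the sign of differences that had not passed. For the interaction the log2 ranges were -0.130 to 0.00750 for Aldh18a1, -0.15 to 0.11 for Atf4, -0.25 to 0.28 for Chac1, -0.350 to 0.0156 for Phgdh, -0.107 to 0.00190 for Psat1 and -0.0349 to 0.106 for Trib3. For Chac1 they were -0.40 to 0.12 for Myc in wt and -0.458 to 0.0686 for ko with Myc. For ko with GFP they were -0.0402 to 0.0311 for Ddit3 and -0.0657 to 0.0304 for Psat1, and for ko with Myc -0.00460 to 0.373 for Vldlr. The causes were not tested.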

Other observations

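Some values were singled out after they had been seen. Slc7a11, the cystine transporter that ATF4 induces, read 2009, 5366 and 2004 in Myc ko, 1172, 2812 and 581 in Myc wt, 1596, 7066 and 2423 in GFP ko and 649, 4798 and 744 in GFP wt arrays. Replicate 2 was the brightest in every group, as it was for Atf4, and in every numbered pair the ko array was brighter than the wt array of the same virus. The ratio of ko to wt was 2.24 with the Myc virus and 2.28 with the GFP virus, with limma adjusted p of 0.671 and 0.674, or 0.036 and 0.037 with the replicate block. Cth, the enzyme that makes cysteine from cystathionine, read 341, 361 and 323 in Myc ko, 97.7, 371 and 167 in Myc wt, 174, 122 and 212 in GFP ko and 87.1, 71.7 and 72.2 in GFP wt arrays. It was 2.07-fold higher with Myc in ko and 2.38-fold higher in wt cells, with adjusted p of 0.111 and 0.0741, the second 0.0466 with the block.

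A second probe set lists Phgdh together with another gene, so it was not read as Phgdh. Its Myc effect on the log2 scale was 0.40 in ko and 0.44 in wt cells (limma adjusted p over all probe sets = 0.0887 and 0.0828). Its log2 difference of ko to wt was -0.22 with the Myc and -0.18 with the GFP virus (limma adjusted p over all probe sets = 0.655 and 0.784). The probe set used for Phgdh had the other sign, 0.05 and 0.16, and neither probe set passed.

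The number of arrays, 3 a group, limits the precision, and RNA does not show the translation of ATF4 or the phosphorylation of eIF2α. Groups and replicates rest on the sample titles.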
